A study of Mus musculus with 28 samples.

Results

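The comparison set CD24+ conventional type 1 dendritic cells (cDC1) against plasmacytoid dendritic cells (pDC) of the mouse spleen, both taken from control animals. Its members were the libraries titled as control cDC1 and control pDC, numbered 1 to 8 in each, so 16 of the 28 libraries of the series entered it, 8 per cell type. All of these mice were C57Bl/6 animals aged 6 to 12 weeks that carried both Irf8 alleles flanked by loxP sites (Irf8 fl/fl) and no Cre recombinase; the labels call them WT. Irf8 was therefore present and not deleted in either cell type, and the mice were kept at steady state with no treatment named. The cells were sorted by flow cytometry from digested spleens and profiled by bulk RNA-seq. The other 12 libraries, 8 of CD172a+ conventional type 2 dendritic cells (cDC2) from the same kind of mice and 4 of pDC from Irf8 fl/fl mice with an Itgax-driven Cre (pDC_TG), are used only to place a level. The series text speaks of 4 replicates, whereas 8 control libraries of each type were at hand.

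Both cell types arise in the bone marrow and both express the transcription factor IRF8, without which cDC1 do not develop, but they do different work. cDC1 take up dying cells through receptors such as CLEC9A, sense double-stranded RNA through TLR3, make interleukin-12 and present antigen to CD8+ T cells on MHC class I; BATF3 and ID2 are also central to their development. pDC sense viral RNA and DNA in endosomes through TLR7 and TLR9, release large amounts of type I interferon and carry SIGLEC-H and BST2 on their surface; the E protein TCF4 sets up and keeps their identity, and ID2 opposes E proteins.

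Levels below are CPM, which are counts relative to the library's total, scaled between libraries by the trimmed mean of M-values (TMM). They compare 1 gene between samples; where different genes are compared, the level is per kilobase of exon. The log2 fold change (log2FC) is cDC1 over pDC from edgeR's quasi-likelihood fit with the replicate number as a block, positive where cDC1 was higher, and is given with its standard error (SE). A gene was called when its Benjamini-Hochberg adjusted p over all genes tested was below 0.05. The labels number the libraries but do not say that equal numbers are 1 mouse, and no label says how many animals went into a library. The p-values therefore measure the spread between these libraries that the replicate block leaves. Where a gene is given by its range in both groups, the 8 libraries of one type lay wholly apart from those of the other. Among called genes given below by a mean or a log2FC, overlap between the groups remained for Acaca, Bbc3, Bcl2l2, Btk, Ccnd2, Csf1, Esam, Fos, Foxo1, H2-DMb2, Hk1, Isg15, Jund, Mki67, Pdcd1lg2, Spint2, Tapbp, Tlr6, Unc93b1 and Zbp1.

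Libraries held 23592099 to 30152305 gene counts in cDC1 and 17299285 to 30787679 in pDC, with 12321 to 12690 and 12039 to 13344 genes counted at least once. Reads that fell in no gene made up 8.23% to 12.4% of counts in cDC1 and 12.4% to 18.7% in pDC, so this share differed between the cell types, and its part in the results was not tested. The first principal component of all 16 libraries took up 74.9% of the variance and parted the cell types; pDC replicate 1, the shallowest library, stood apart on the second, which took up 2.62%. Markers of other spleen cells were checked as summed levels. T cell markers summed to 0.0725 to 6.06 CPM in cDC1 and 0.0734 to 6.86 in pDC, NK cell markers to 1.00 to 3.40 and 0.429 to 2.38, and platelet markers to at most 3.74 CPM in any library. Neutrophil markers reached 22.5 CPM in cDC1 replicate 4, against a cDC1 median of 0.590 and at most 2.61 CPM in pDC. B cell markers summed to 76.6 to 147 CPM in cDC1, mostly Ms4a1 and Fcrl1, with Pax5 at 0, against 6.95 to 40.7 in pDC. Monocyte and macrophage markers summed to 414 to 634 CPM in cDC1, mostly Lyz2 and Vcam1, against 21.0 to 38.1 in pDC, and erythroid markers to 2.87 to 8.58 against 0.183 to 2.03. Plasma cell markers summed to 160.0 to 336 CPM in pDC, mostly Irf4 and Sdc1, against 5.22 to 24.1 in cDC1, with Tnfrsf17 at most at 0.0247 CPM on average. The part of such cells in any result was not tested.

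**Figure D1:**
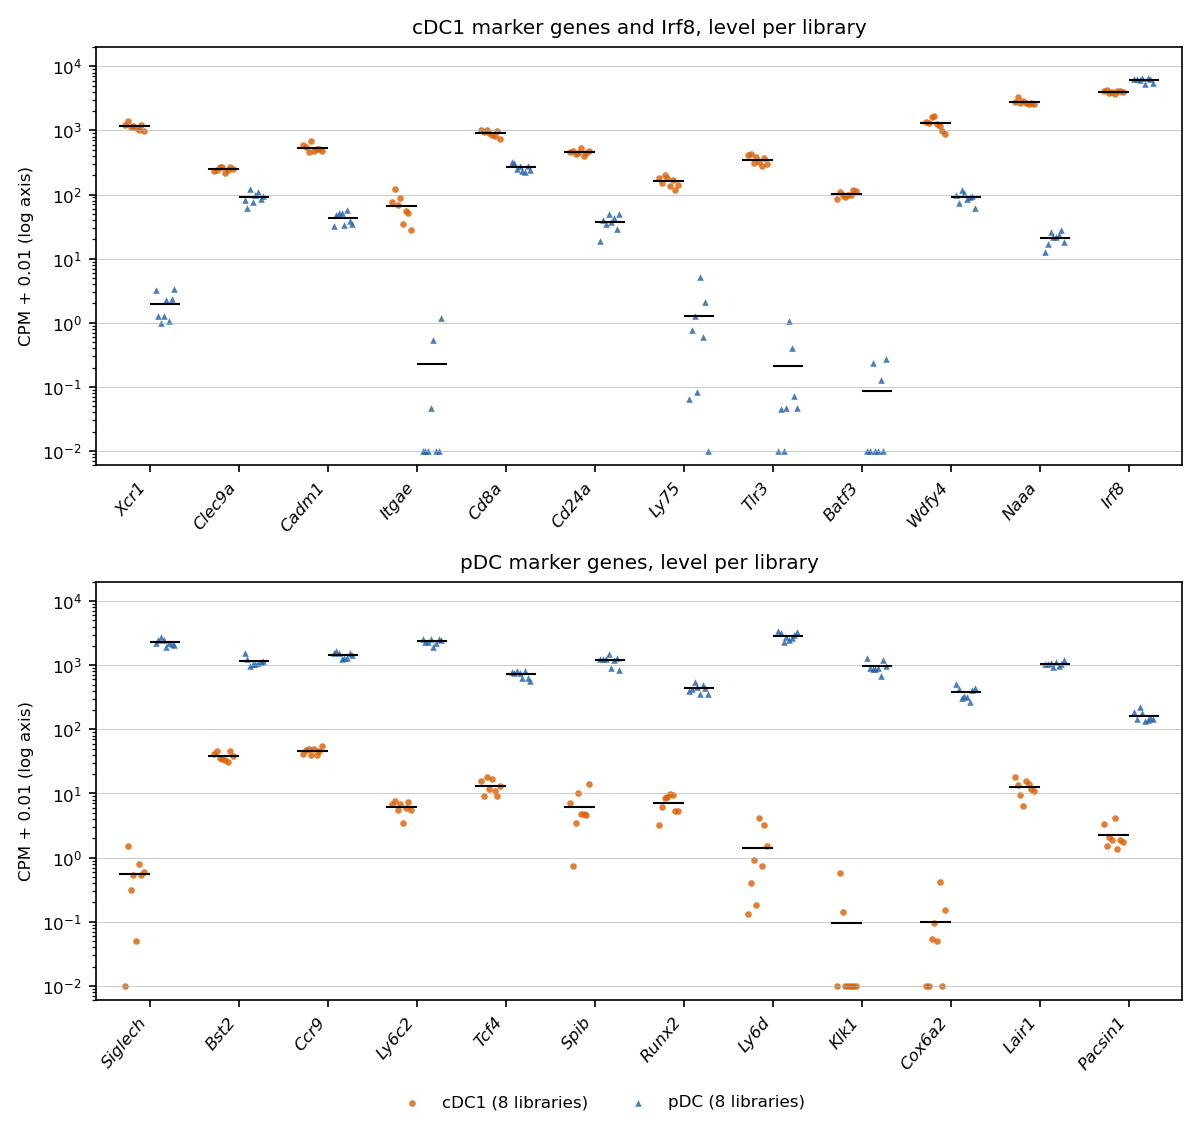
Level of 11 cDC1 marker genes and Irf8 (upper panel) and of 12 pDC marker genes (lower panel) in each of the 16 libraries, on a log axis of CPM plus 0.01; orange circles are cDC1 libraries, blue triangles pDC libraries and black bars the group means. The 2 sets of points part for all 24 genes, by the least for Irf8, where cDC1 lie below pDC, and for Clec9a and Cd8a.

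The marker genes were read first, as a description of the sorted cells. All 22 genes of the cDC1 marker list were higher in cDC1 and all 35 of the pDC marker list were higher in pDC, with median log2FC of 7.09 and -7.98. Irf8, which the plan also named as a cDC1 marker, is not among the 22 and was higher in pDC. Both lists are known signatures chosen with results of these data in view, so their counts are no independent support for the names. Some of these markers stand on functional lists below too, and those counts are not independent of this choice. Over all 11450 genes tested, 31.8% were called higher in cDC1 and 32.2% higher in pDC. Every list count below is to be read beside these shares. Xcr1, the receptor for the chemokine that CD8+ T cells and NK cells release, ranged from 978 to 1381 CPM (median 1165) in cDC1 and from 0.972 to 3.41 (median 1.75) in pDC. Siglech, the endocytic receptor that names pDC, ranged from 0 to 1.52 CPM (median 0.525) in cDC1 and from 1909 to 2758 (median 2254) in pDC. The fit gave log2FC 9.24, SE 0.278, adjusted p = 1.63e-09 for Xcr1 and log2FC -12.13, SE 0.392, adjusted p = 4.76e-09 for Siglech. The smallest differences on the cDC1 list were those of Clec9a, the sensor of exposed actin on dead cells, and Cd8a. Clec9a ranged from 221 to 272 CPM (median 246) in cDC1 and from 60.8 to 123 (median 89.0) in pDC (log2FC 1.45, SE 0.106, adjusted p = 8.52e-08), and Cd8a ranged from 747 to 1022 CPM (median 927) in cDC1 and from 225 to 322 (median 262) in pDC, so transcripts of both were plain in pDC too. On the pDC list the smallest difference was that of Plac8, which ranged from 504 to 845 CPM (median 686) in cDC1 and from 1605 to 2856 (median 1969) in pDC (log2FC -1.60, SE 0.0638, adjusted p = 2.27e-10).

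Irf8 itself, on chromosome 8 from 120736358 to 120756694 (GRCm38), ranged from 3702 to 4249 CPM (median 4050.4) in cDC1 and from 5359 to 6531 (median 6325) in pDC. The groups did not overlap, and the mean level in cDC1 was 65.5% of that in pDC (log2FC -0.63, SE 0.0388, adjusted p = 1.45e-08). An exact permutation test that flipped the signs of the 8 differences of same-numbered libraries gave a two-sided p of 0.0078125, the smallest that 256 flips allow, while edgeR's test against a 1.5-fold change was not passed (adjusted p = 0.0972). In cDC2, Irf8 averaged 72.2 CPM.

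**Figure D2:**
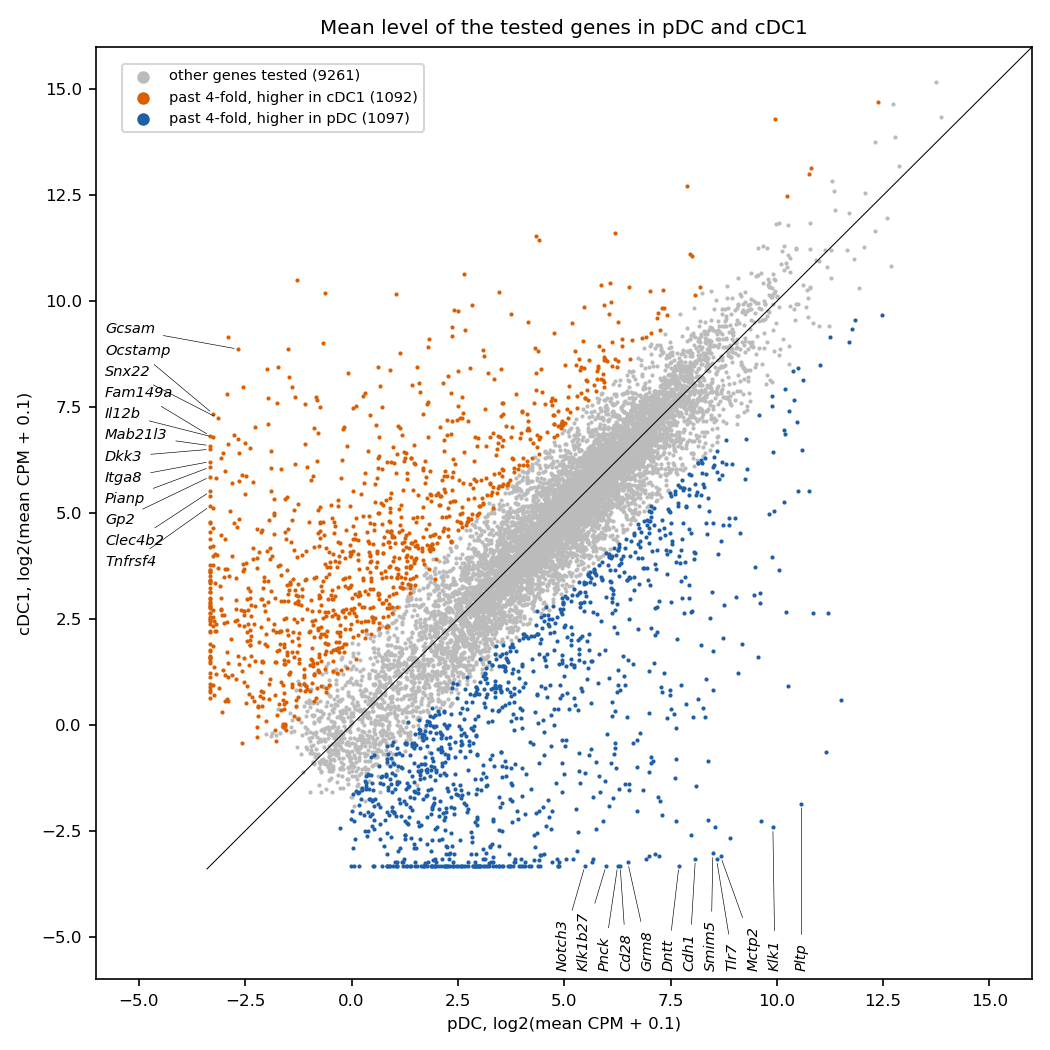
Mean level of each of the 11450 genes tested in pDC (x axis) and cDC1 (y axis), as log2 of CPM plus 0.1; orange and blue points are genes called and past 4-fold in cDC1 or pDC, grey points the rest, and the genes with the largest log2FC in each direction are named. The named genes lie along the 2 axes, with almost no signal in the other cell type.

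Across the transcriptome 7319 genes (63.9%) were called, 3637 higher in cDC1 and 3682 higher in pDC. Counted without a TMM factor, by total counts alone, the split was 2828 and 4885, because that scaling moved the median log2FC by -0.22; small differences are therefore relative to the scaling used. Differences past 4-fold were even on both sides: 1092 genes (9.54%) in cDC1 and 1097 (9.58%) in pDC, 19.1% of all genes together. Past 16-fold there were 584 and 577. For 3897 genes (34%) the 8 libraries of one type lay wholly apart from the 8 of the other.

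The 12 genes with the largest log2FC towards cDC1 were Fam149a, Mab21l3, Dkk3, Ocstamp, Itga8, Pianp, Gp2, Il12b, Clec4b2, Snx22, Tnfrsf4 and Gcsam. Their order rests on fitted values, which depend on a prior count where pDC had next to none. Fam149a, Mab21l3, Dkk3, Itga8, Pianp, Gp2, Clec4b2 and Tnfrsf4 had no count in any pDC library. Against a floor of 3 counts over the pDC group they were at least 7745-fold (Fam149a), 6601-fold (Mab21l3), 6228-fold (Dkk3), 5089-fold (Itga8), 4653-fold (Pianp), 3977-fold (Gp2), 3119-fold (Clec4b2) and 2457-fold (Tnfrsf4) higher in cDC1. Dkk3, a secreted member of the Dickkopf family, ranged from 68.0 to 117 CPM (median 91.1) across the cDC1 libraries and averaged 0.0164 CPM in cDC2. Itga8, the integrin alpha 8 chain, ranged from 49.6 to 91.0 CPM (median 78.3). Tnfrsf4, which codes for the T cell costimulatory receptor OX40, was the most spread of them among cDC1, from 16.4 to 74.8 CPM (median 27.6), and Gp2, a receptor for bacterial fimbriae on M cells, ranged from 25.9 to 94.6 (median 56.2). Ocstamp, a membrane protein of osteoclast fusion, averaged 162 CPM in cDC1 and had 1 count in all of pDC, a ratio of 33381 with a 95% counting interval of 5991 to 1318480. Snx22, a sorting nexin, had 3 counts in pDC against 152 CPM in cDC1 (ratio 10404, 3560 to 50448). Gcsam, an adaptor first known from germinal centre B cells, ranged from 428 to 539 CPM (median 450.2) in cDC1 and from 0 to 0.463 (median 0) in pDC, with 0.0822 CPM on average in cDC2.

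The 12 genes furthest towards pDC were Dntt, Tlr7, Mctp2, Cdh1, Cd28, Pnck, Smim5, Klk1b27, Klk1, Notch3, Grm8 and Pltp. Dntt, the terminal transferase that adds bases at V(D)J junctions in lymphocyte precursors, ranged from 159 to 273 CPM (median 209) in pDC and had no count in any cDC1 library, which makes it at least 13146-fold higher in pDC. Cd28 (at least 5033-fold), the T cell costimulatory receptor, Pnck (at least 4838-fold), a calmodulin-dependent kinase, Klk1b27 (at least 4008-fold), a kallikrein, and Notch3 (at least 2837-fold) were likewise without a count in cDC1. Cdh1, which codes for E-cadherin, the adhesion protein of epithelia, ranged from 193 to 378 CPM (median 259.7) in pDC with 2 counts in all of cDC1 (ratio 25757, 7130 to 212683). Mctp2, a calcium-binding membrane protein, had 3 counts in cDC1 (ratio 25886, 8858 to 125523) and Grm8, a glutamate receptor, 1 (ratio 17106, 3070 to 675660). Pltp, the phospholipid transfer protein, ranged from 0 to 0.653 CPM (median 0.0866) in cDC1 and from 1150.0 to 1997 (median 1585) in pDC, and stood at 111 CPM in cDC2. Klk1, a tissue kallikrein, ranged from 0 to 0.566 CPM (median 0) in cDC1 and from 685 to 1304 (median 897) in pDC, and Smim5, a small membrane protein, averaged 361 CPM in pDC against 0.0221 in cDC1. Klk1b27 is one of many near-identical kallikrein genes, so its counts are uncertain.

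In all, 37 genes reached 10 CPM in cDC1 with at most 3 counts over the pDC group, 24 of them with none, and 47 genes did so the other way round, 25 with none. On the cDC1 side they included, among genes picked after their values were seen, Jag1, a Notch ligand, and Mefv, the gene for pyrin. On the pDC side they included Sdc1, the syndecan known from plasma cells, which averaged 51.2 CPM with 2 counts in all of cDC1 (ratio 4859, 1345 to 40120), and Vegfc, a growth factor of lymph vessels.

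Promoter sequence was set beside these groups for genes at the far ends of the comparison. The 250 bases before the annotated start were taken from RefSeq's GRCm38.p6 table and searched on both strands for 7 motifs, with 11160 windows of tested genes matched by symbol. CAGGTG, a form of the E-box that E proteins such as TCF4 bind, stood in 14.9% of these windows, in 16.3% of the 1035 windows of genes past 4-fold in cDC1 and in 20.2% of the 1040 windows of genes past 4-fold in pDC; over every window of the table it stood in 17.2%. Counted by gene rather than by window, 10 of the 27 pDC marker genes with a window held it, Siglech, Bst2, Ccr9, Klk1, Lifr, Paqr5, Mctp2, Havcr1, Cd300c and Cyb561a3, against 1 of 15 cDC1 marker genes with a window. The E-box CAGCTG stood in 11.5% of all tested windows, 14.1% of the cDC1 set and 16% of the pDC set, and the RUNX motif TGTGGT in 11%, 10.5% and 14.5%. A pair of GAAA copies 2 bases apart, the repeat that interferon regulatory factors bind, stood in 2.81%, 4.25% and 3.37%, GGAA and GAAA 2 bases apart, to which ETS factors and IRF8 bind together, in 2%, 2.8% and 2.12%, the AP-1 motif TGANTCA in 4.19%, 6.09% and 4.9%, and the NF-kappaB motif, GGGA and TTCC 2 bases apart, in 1.27%, 1.64% and 0.962%. Over every window of the table the shares were 13% for CAGCTG, 14% for TGTGGT and 6.75% for TGANTCA. They were 2.98% for the GAAA pair, 2.3% for GGAA with GAAA and 1.21% for the NF-kappaB motif. The TGTGGT share of the pDC set was thus near that of the whole table, and the TGANTCA share of both sets was under it. Counted by gene, CAGCTG stood in 5 of the 27 pDC and 1 of the 15 cDC1 marker genes and TGTGGT in 9 and 3. The GAAA pair stood in 2 and 2, GGAA with GAAA in 1 and 2, TGANTCA in 0 and 0 and the NF-kappaB motif in 0 and 1. The share by gene over all tested genes was not taken. The shares describe the windows, neither they nor the counts by gene were tested, and 1 gene can hold several motifs. Of these windows, 4 are shown with the match in capitals, 2 of pDC genes with the E-box (CACCTG is CAGGTG on the other strand) and 2 of cDC1 Toll-like receptor genes with the IRF repeat and the NF-kappaB motif.
Siglech: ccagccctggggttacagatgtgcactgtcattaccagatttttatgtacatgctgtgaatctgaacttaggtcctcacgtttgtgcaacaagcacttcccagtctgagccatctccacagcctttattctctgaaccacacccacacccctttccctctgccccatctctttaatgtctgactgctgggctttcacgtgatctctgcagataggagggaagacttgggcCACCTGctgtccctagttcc
Klk1: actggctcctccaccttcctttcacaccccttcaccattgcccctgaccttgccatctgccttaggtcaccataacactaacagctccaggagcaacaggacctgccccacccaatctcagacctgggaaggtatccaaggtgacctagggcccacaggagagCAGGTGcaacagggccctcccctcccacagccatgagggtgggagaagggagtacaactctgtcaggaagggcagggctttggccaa
Tlr11: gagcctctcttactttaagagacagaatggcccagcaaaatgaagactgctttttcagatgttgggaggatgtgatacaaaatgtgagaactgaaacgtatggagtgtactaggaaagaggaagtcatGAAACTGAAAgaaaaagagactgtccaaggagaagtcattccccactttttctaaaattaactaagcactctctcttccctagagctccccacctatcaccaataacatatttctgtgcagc
Tlr3: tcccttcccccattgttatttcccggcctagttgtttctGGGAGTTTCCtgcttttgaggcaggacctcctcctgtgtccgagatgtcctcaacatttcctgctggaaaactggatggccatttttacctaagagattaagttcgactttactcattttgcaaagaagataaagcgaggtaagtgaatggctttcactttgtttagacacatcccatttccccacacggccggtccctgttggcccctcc
Siglech's window is chr7:55767934-55768183 on the plus strand, that of Klk1 chr7:44225110-44225359 on the plus strand, that of Tlr11 chr14:50357664-50357913 on the plus strand and that of Tlr3 chr8:45410381-45410630 on the minus strand, each written 5′ to 3′ towards the start of the gene.

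Transcription factors of dendritic cell fate differed nearly throughout. Of 44 listed, 42 were tested; 17 were higher in cDC1 and 21 higher in pDC, and 4 were not called, with a median log2FC of -0.37 against -0.04 over all genes. ID2, which binds E proteins and keeps them from DNA, and the E protein TCF4 stood at opposite ends. Id2 ranged from 1077 to 1854 CPM (median 1651) in cDC1 and from 4.72 to 7.59 (median 5.92) in pDC (log2FC 8.00, SE 0.117, adjusted p = 2.90e-14). Tcf4 ranged from 9.03 to 18 CPM (median 12.5) in cDC1 and from 562 to 814 (median 761) in pDC (log2FC -5.83, SE 0.150, adjusted p = 1.80e-11). Every cDC1 library was above every pDC library for Id2 and below for Tcf4. Id3, the second Id protein, went the other way from Id2, with 1.02 CPM on average in cDC1 and 15.7 in pDC (log2FC -4.18, SE 0.550, adjusted p = 2.42e-05). Among the other E proteins Tcf12 was higher in pDC (log2FC -2.48) and Tcf3 did not pass the test (69.5 CPM in cDC1 and 74.6 in pDC, adjusted p = 0.338).

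The ETS factor PU.1 (Spi1) and its relative SPIB split between the cell types. Spi1 ranged from 491 to 579 CPM (median 538) in cDC1 and from 81.7 to 112 (median 95.5) in pDC (log2FC 2.47, SE 0.0665, adjusted p = 7.02e-12), and Spib ranged from 0.740 to 14.0 CPM (median 4.80) in cDC1 and from 842 to 1480.1 (median 1262) in pDC (log2FC -7.78, SE 0.463, adjusted p = 4.05e-07). Zeb2, a repressor needed for pDC and cDC2, averaged 1.81 CPM in cDC1 and 214 in pDC and its relative Zeb1 29.9 CPM in cDC1 and 15.0 in pDC, called in opposite directions. Of the RUNX genes, Runx2 averaged 7.00 CPM in cDC1 and 436 in pDC and Runx1 75.3 CPM in cDC1 and 37.8 in pDC, again in opposite directions. Bcl11a, a regulator of pDC and B cell development, and Mef2c had log2FC of -1.83 and -2.81, while Bcl6, a repressor needed for cDC1, and Nr4a3, an orphan nuclear receptor tied to dendritic cell migration, had 2.85 and 3.34. Among members picked after their values were seen, Batf3 ranged from 85.1 to 117 CPM (median 98.0) in cDC1 and from 0 to 0.262 (median 0) in pDC (log2FC 10.27, SE 0.407, adjusted p = 1.43e-09), Zbtb46, a factor of conventional dendritic cells, averaged 215 CPM in cDC1 and 5.91 in pDC, Myc 26.5 CPM in cDC1 and 1.54 in pDC and Ets1 1.03 CPM in cDC1 and 259 in pDC. Ikzf3, the gene for Aiolos, averaged 0.276 CPM in cDC1 and 13.5 in pDC.

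**Figure D3:**
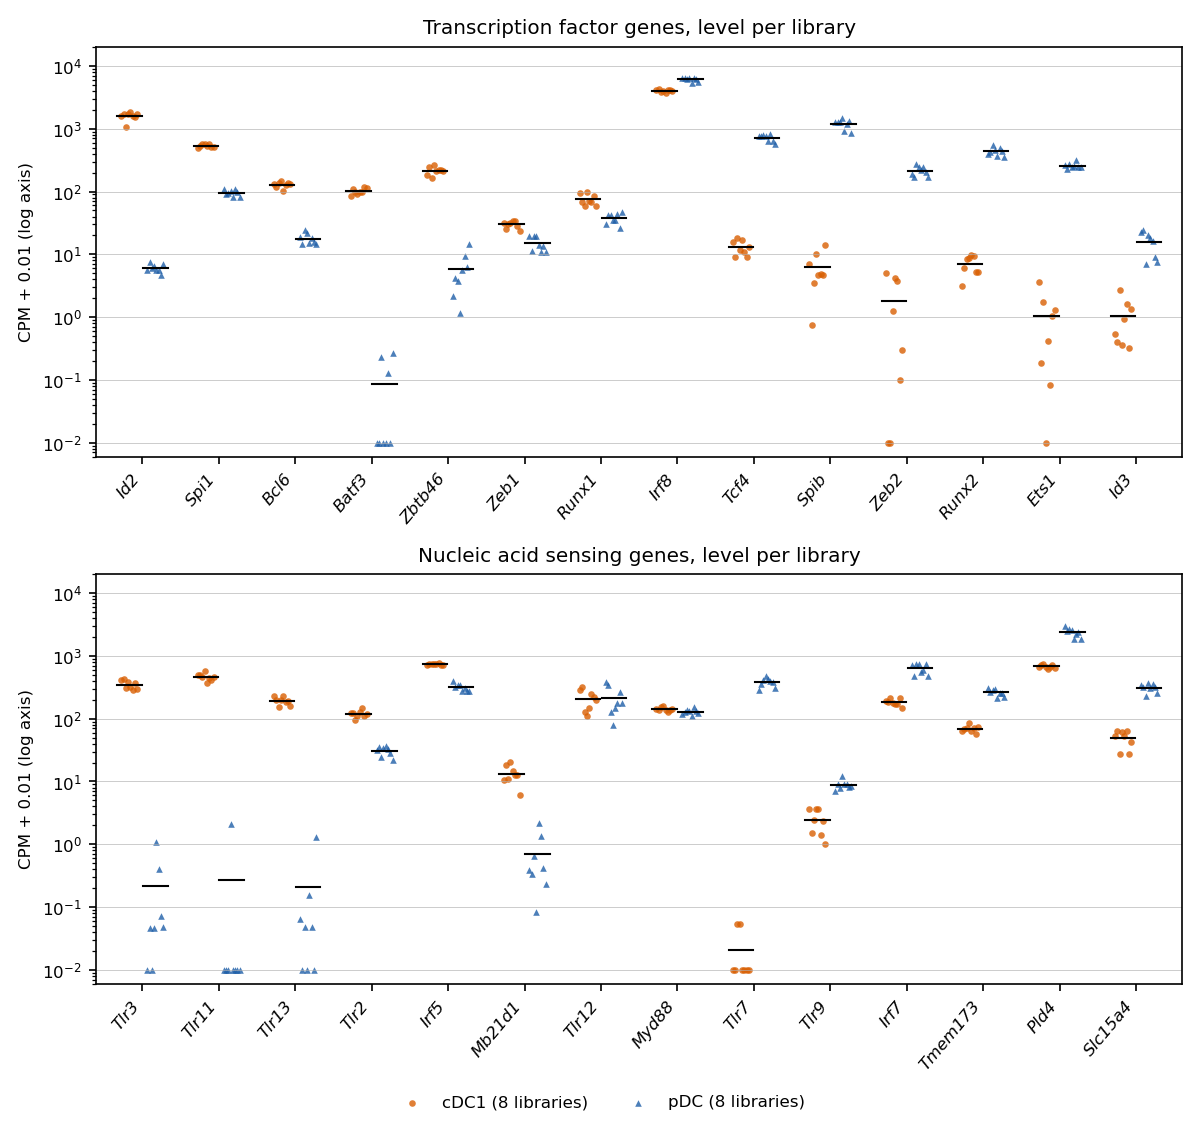
Level in each of the 16 libraries of 14 transcription factor genes (upper panel) and 14 genes of nucleic acid sensing (lower panel), on a log axis of CPM plus 0.01; orange circles are cDC1, blue triangles pDC, black bars group means. Id2 and Tcf4, Spi1 and Spib, Zeb1 and Zeb2, and Tlr3 and Tlr7 sit on opposite sides, while Tlr12 and Myd88 overlap.

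Toll-like receptors were divided almost gene by gene. Of 41 tested genes that sense nucleic acids or induce interferon, 17 were higher in cDC1, 13 higher in pDC and 11 not called, with a median log2FC of 0.11. The share called was 73.2%, near the 63.9% of all genes, of which 31.8% were higher in cDC1 and 32.2% in pDC. The counts of this list are therefore no trait of it. Tlr3, the endosomal receptor for double-stranded RNA, ranged from 283 to 421 CPM (median 346) in cDC1 and from 0 to 1.06 (median 0.0371) in pDC (log2FC 10.86, SE 0.512, adjusted p = 7.35e-08). Tlr7, the receptor for single-stranded RNA on the X chromosome, ranged from 285 to 481 CPM (median 395) in pDC and had 2 counts in all cDC1 libraries (ratio 36408, 10079 to 300635). It was also plain in cDC2, at 126 CPM on average, and lower in cDC1 than in cDC2 (adjusted p = 1.01e-20). Tlr11, which binds profilin of Toxoplasma, ranged from 374 to 573 CPM (median 462) in cDC1 and from 0 to 2.05 (median 0) in pDC (log2FC 11.05, SE 0.677, adjusted p = 5.02e-07), whereas Tlr12, its partner for that ligand, averaged 207 ± 75.8 CPM (SD, n = 8) in cDC1 and 211 ± 106 in pDC and was not called (adjusted p = 0.881). Tlr13, a receptor for bacterial ribosomal RNA, averaged 193 CPM in cDC1 and 0.198 in pDC, and Tlr9, the receptor for unmethylated DNA, 2.43 CPM in cDC1 and 8.84 in pDC (log2FC -2.0, SE 0.318, adjusted p = 1.12e-04); both were picked after their values were seen, as were Tlr12 and the next genes. Tlr8 had no count in either cell type. Surface receptors of bacterial lipids were higher in cDC1: Tlr1, Tlr2, Tlr4 and Tlr6 had log2FC of 6.22, 1.95, 2.1 and 1.19.

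Downstream of the receptors the shared adaptor gene Myd88 was not called, and the interferon regulatory factors Irf5 and Irf7 differed in opposite directions. Myd88 averaged 142 ± 9.55 CPM (SD, n = 8) in cDC1 and 130.0 ± 12.3 in pDC (log2FC 0.11, adjusted p = 0.189; 0.16 and called without replicate 6) and Unc93b1, the chaperone that carries Toll-like receptors to endosomes, had a log2FC of -0.47. Irf7, the factor that drives interferon alpha genes, ranged from 147 to 216 CPM (median 182) in cDC1 and from 475 to 755 (median 653) in pDC (log2FC -1.78, SE 0.0686, adjusted p = 1.60e-10), and Irf5 ranged from 707 to 766 CPM (median 732) in cDC1 and from 273 to 392 (median 314) in pDC (log2FC 1.19, SE 0.0666, adjusted p = 6.16e-09). Slc15a4, a lysosomal transporter that pDC need for interferon, had a log2FC of -2.75, Tnfaip3, the gene for A20, -1.33 and Pld4, a lysosomal exonuclease, -1.83. Of the DNA sensing pair, Mb21d1 (cGAS) was higher in cDC1 at 13.2 CPM in cDC1 and 0.692 in pDC and Tmem173 (STING) higher in pDC at 69.4 CPM in cDC1 and 265 in pDC. Ifnb1 and Ifna4 were at or near 0 in both, at most 0.644 CPM for Ifnb1 in 1 pDC library.

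Interferon-stimulated genes leaned to pDC in these untreated mice. Of 30 tested, 18 were higher in pDC, 4 higher in cDC1 and 8 not called, with a median log2FC of -0.91. A test against a 1.5-fold change left 11 higher in pDC and 2 higher in cDC1. The share called, 73.3%, was near the 63.9% over all genes, where 32.2% were higher in pDC and 31.8% in cDC1. The number called is therefore no trait of this list, and only the direction of the calls leaned. Ifi47, an inducible GTPase, ranged from 21.9 to 51.7 CPM (median 35.0) in cDC1 and from 226 to 329.9 (median 280.0) in pDC (log2FC -3.05, SE 0.118, adjusted p = 1.70e-10). Ifi27l2a, Oasl2 and Stat2 had log2FC of -3.77, -4.33 and -2.16. Those higher in cDC1 were Ifitm3, an antiviral membrane protein, at 87.4 CPM in cDC1 and 23.1 in pDC, Gbp2, Ifi35 and Zbp1, with log2FC of 1.94, 3.37, 0.34 and 0.70. The classical member Isg15 was low in both cell types, at 14.7 CPM in cDC1 and 23.9 in pDC. The receptor chains for type I interferon, Ifnar1 and Ifnar2, were higher in pDC (log2FC -1.37 and -2.12), and that of interferon gamma, Ifngr1, was higher in cDC1. Ifngr1 ranged from 1291 to 1489 CPM (median 1367) in cDC1 and from 52.5 to 85.3 (median 64.8) in pDC (log2FC 4.35, SE 0.0872, adjusted p = 4.54e-13).

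Receptors known to restrain or regulate pDC were mostly high there: 17 of 19 tested were higher in pDC and 2 higher in cDC1, with a median log2FC of -4.05. Ptprs, Lair1, Lag3, Havcr1 and Klra17 also stand on the pDC marker list, chosen with these data in view. The count is therefore not independent of that choice. Ptprs, a phosphatase receptor that holds back pDC activation, ranged from 45.5 to 87.9 CPM (median 70.9) in cDC1 and from 342 to 667 (median 419) in pDC (log2FC -2.68, SE 0.101, adjusted p = 1.24e-10). Lair1, a collagen receptor with inhibitory motifs, averaged 12.5 CPM in cDC1 and 1055 in pDC, Lag3 2.32 CPM in cDC1 and 126 in pDC and Havcr1 (TIM-1) 0.474 CPM in cDC1 and 198 in pDC. The adaptors through which several of these receptors signal were higher in pDC as well, Tyrobp (DAP12) at 283 CPM in cDC1 and 1556 in pDC and Fcer1g at 29.6 CPM in cDC1 and 467 in pDC. The exceptions were Fcgr2b, the inhibitory Fc receptor, at 70.7 CPM in cDC1 and 17.3 in pDC, and Pdcd1lg2, the PD-1 ligand PD-L2, at 3.49 CPM in cDC1 and 0.234 in pDC. Klra17 belongs to a family of near-identical genes, so its level (0.112 CPM in cDC1 and 333 in pDC) is uncertain.

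Genes of MHC class II presentation were mostly higher in cDC1, from the chains to their regulator. Of 16 genes, 11 were higher in cDC1, 3 higher in pDC and 2 not called, with a median log2FC of 1.37. H2-Ab1, a class II beta chain, ranged from 23590.5 to 27662 CPM (median 25672) in cDC1 and from 5809 to 7868 (median 6714) in pDC (log2FC 1.90, SE 0.0516, adjusted p = 7.51e-12). Ciita, the master regulator of class II genes, averaged 383 CPM in cDC1 and 76.6 in pDC. H2-Eb1, H2-Aa and Cd74 (the invariant chain) had log2FC of 2.33, 1.43 and 1.42. The widest difference was that of H2-Ob, a chain of the class II modulator H2-O, at 362 CPM in cDC1 and 38.4 in pDC (log2FC 3.21), against 0.76 for its partner H2-Oa. Ctss, H2-DMb2 and Lgmn were the 3 members higher in pDC, with log2FC of -0.89, -0.51 and -0.59.

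Genes of the class I pathway were higher on either side. Of 25 tested genes 14 were higher in cDC1 and 9 higher in pDC, with a median log2FC of 0.41. The surface molecules were higher in pDC: B2m, H2-K1 and H2-T23 had log2FC of -0.68, -0.82 and -1.05, and a test against a 1.5-fold change left 5 members higher in pDC. Genes of peptide loading and cross-presentation went both ways: Tapbp, the loading chaperone tapasin, picked after its values were seen, averaged 1262 CPM in cDC1 and 1749.8 in pDC (log2FC -0.49). Tap1, a chain of the peptide transporter, ranged from 865 to 1239 CPM (median 1049) in cDC1 and from 297 to 471 (median 376) in pDC (log2FC 1.45, SE 0.0452, adjusted p = 2.64e-11), and Calr, a loading chaperone, had a log2FC of 1.04. Wdfy4, which cDC1 need for cross-presentation, ranged from 877 to 1698 CPM (median 1291) in cDC1 and from 62.2 to 119 (median 93.2) in pDC (log2FC 3.78, SE 0.0807, adjusted p = 7.94e-13). Rab43, a GTPase of cross-presenting compartments, averaged 1015 CPM in cDC1 and 68.0 in pDC, but 75% of its exon bases lie under another gene. Rac2, a GTPase of blood cells and part of the phagocyte oxidase, was higher in pDC (log2FC -2.75). The transcripts of individual class I genes are near copies, so their counts can mix.

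Uptake receptors differed in both directions, and the share called (64.7%) was near that of all genes (63.9%). Of 17 tested genes 8 were higher in cDC1, 3 in pDC and 6 not called, with a median log2FC of 1.25. Cd36, a scavenger receptor for dead cells and lipids, averaged 929 CPM in cDC1 and 44.4 in pDC, where replicate 5 stood at 133, Havcr2 (TIM-3) 338 CPM in cDC1 and 11.2 in pDC and Ly75 (DEC-205) 160.1 CPM in cDC1 and 1.25 in pDC, Cd36 and Ly75 picked after their values were seen. Itgav and Elmo1 had log2FC of 2.00 and 1.25. On the pDC side Itgb3, the beta 3 chain that pairs with integrin alpha V, averaged 0.281 CPM in cDC1 and 91.2 in pDC, Cd300lf 2.80 CPM in cDC1 and 89.9 in pDC and Cd163 0.516 CPM in cDC1 and 7.68 in pDC. Mertk and Tyro3, receptors by which macrophages engulf dead cells, were at or near 0 in both.

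Costimulatory genes were mostly higher in cDC1. Of 18 tested, 14 were higher in cDC1, 2 in pDC and 2 not called, with a median log2FC of 2.22. Cd86, the B7 ligand of CD28, ranged from 559 to 718 CPM (median 637) in cDC1 and from 3.74 to 9.43 (median 6.24) in pDC (log2FC 6.70, SE 0.162, adjusted p = 1.12e-11). Cd83, which stabilises class II and CD86 at the surface, ranged from 2293 to 4169.7 CPM (median 2942) in cDC1 and from 11.3 to 26.3 (median 19.2) in pDC (log2FC 7.22, SE 0.203, adjusted p = 7.49e-10). The lowest cDC1 library was far above the highest pDC library for both. Btla had a log2FC of 3.30 and, picked after their values were seen, Cd40 averaged 157 CPM in cDC1 and 11.3 in pDC and Cd80 19.6 CPM in cDC1 and 1.22 in pDC. Cd226 had no count in pDC against 6.13 CPM in cDC1, at least 420-fold higher. Cd200 and Tnfsf10 (TRAIL) were the members higher in pDC, at 43.4 CPM in cDC1 and 134 in pDC and 0.965 CPM in cDC1 and 13.5 in pDC. The receptor genes Cd28, Lag3 and Havcr1, all higher in pDC, stand outside this list, so its counts depend on that choice.

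The 2 chains of interleukin-12 sat in different cells. Il12b, the shared p40 chain, ranged from 76.4 to 146 CPM (median 106) in cDC1 and had 1 count in all of pDC (ratio 22800.0, 4092 to 900552). Il12a, the p35 chain, had no count in any cDC1 library and ranged from 0.734 to 9.58 CPM (median 4.13) in pDC, at least 288-fold higher. Of 13 tested cytokine genes 8 were higher in cDC1 and 2 in pDC, with a median log2FC of 1.29. The share called was 76.9%, against 63.9% over all genes. Il1b ranged from 778 to 1830.1 CPM (median 1093) in cDC1 and from 1.61 to 34.5 (median 8.77) in pDC (log2FC 7.09, SE 0.353, adjusted p = 1.09e-07). Il18 and Tnf averaged 27.4 CPM in cDC1 and 1.76 in pDC and 36.7 CPM in cDC1 and 4.07 in pDC, and Il15, which sustains NK and memory T cells, 25.7 CPM in cDC1 and 0.926 in pDC. Csf1, the other member higher in pDC, averaged 0.769 CPM in cDC1 and 2.91 in pDC, and its groups overlapped. The Csf1 call was lost without replicate 1 (log2FC -2.89), without the replicate block (-1.94; -1.91 with all 28 libraries), in replicates 1 to 4 (-3.98), in replicates 5 to 8 (-2.06) and in males (-1.43).

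**Figure D4:**
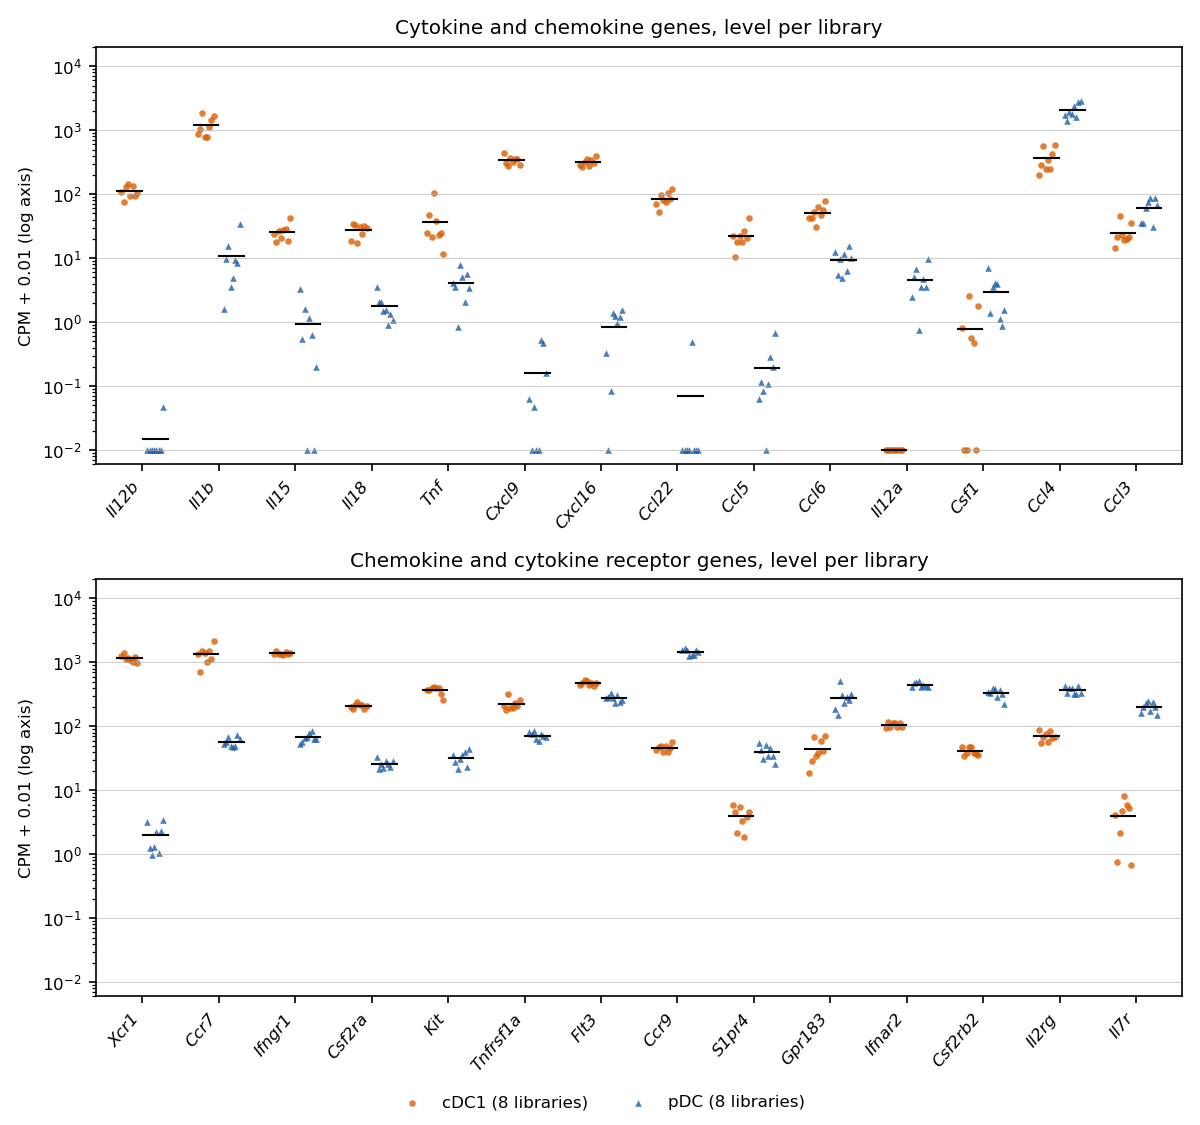
Level in each of the 16 libraries of 14 cytokine and chemokine genes (upper panel) and 14 receptor genes (lower panel), on a log axis of CPM plus 0.01; orange circles are cDC1, blue triangles pDC, black bars group means. Il12b and Il12a part in opposite directions, Ccl4 and Ccl3 are the chemokines higher in pDC, and Ifngr1 and Ifnar2 part in opposite directions.

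Chemokines were mostly higher in cDC1. Of 11 tested 9 were higher in cDC1, each past 4-fold, and Ccl3 and Ccl4 were higher in pDC. Cxcl9, a ligand of CXCR3 on activated T cells, ranged from 276 to 434 CPM (median 334) in cDC1 and from 0 to 0.508 (median 0.0455) in pDC (log2FC 10.97, SE 0.405, adjusted p = 7.78e-09). Ccl22 averaged 85.5 CPM in cDC1 and 0.0604 in pDC, Ccl5 22.5 CPM in cDC1 and 0.183 in pDC and Ccl6 51.7 CPM in cDC1 and 9.47 in pDC, and, picked after its values were seen, Cxcl16, the ligand of CXCR6, 318 CPM in cDC1 and 0.842 in pDC. Ccl4 ranged from 200.1 to 584 CPM (median 315) in cDC1 and from 1399 to 2865 (median 1847) in pDC (log2FC -2.59, SE 0.135, adjusted p = 3.06e-08). Per kilobase of exon Ccl4 was the fifth strongest protein-coding transcript of pDC and stood at rank 75 in cDC1.

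Chemokine receptors leaned to pDC: 10 of 16 tested were higher there and 2 higher in cDC1, with a median log2FC of -3.05. The 2 were Xcr1, given above, and Ccr7, the receptor that guides dendritic cells to lymph nodes, which ranged from 718 to 2144 CPM (median 1355) in cDC1 and from 47.1 to 74.4 (median 54.8) in pDC (log2FC 4.46, SE 0.168, adjusted p = 2.99e-09). Ccr9, a receptor for the gut and thymus chemokine CCL25, ranged from 39.2 to 56.0 CPM (median 46.7) in cDC1 and from 1256 to 1689.7 (median 1487) in pDC (log2FC -5.0, SE 0.0756, adjusted p = 3.23e-14). Gpr183, an oxysterol receptor, averaged 45.0 CPM in cDC1 and 279.7 in pDC and S1pr4 3.93 CPM in cDC1 and 39.8 in pDC. Cxcr4 averaged 156 ± 25.9 CPM (SD, n = 8) in cDC1 and 154 ± 21.4 in pDC and was not called (adjusted p = 0.897). The share of chemokine receptors called was 75%, against 63.9% over all genes. Their summed level overlapped, at 2537 to 3747 CPM in cDC1 and 2820 to 3687 in pDC.

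Cytokine receptors were divided, 12 of 22 tested higher in cDC1 and 9 higher in pDC. Csf2ra, the chain that binds GM-CSF, was higher in cDC1 at 209 CPM in cDC1 and 26.0 in pDC, and the beta chain Csf2rb2, which in mice serves interleukin-3, was higher in pDC at 41.0 CPM in cDC1 and 332 in pDC. Kit, the receptor for stem cell factor, averaged 363 CPM in cDC1 and 32.2 in pDC and Tnfrsf1a had a log2FC of 1.6. Il2rg, the common gamma chain, averaged 70.6 CPM in cDC1 and 368 in pDC and, picked after their values were seen, Il7r, the receptor chain of lymphocyte precursors, averaged 3.96 CPM in cDC1 and 201 in pDC and Flt3, the receptor for the growth factor that both cell types need, 472 CPM in cDC1 and 276 in pDC (log2FC 0.76).

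Genes known from lymphocyte development were strong in pDC. Of 20 tested, 15 were higher in pDC, 14 of them past 4-fold, 3 were higher in cDC1 and 2 not called, with a median log2FC of -4.69. Ly6d, a surface protein of early lymphoid precursors, ranged from 0.120 to 4.18 CPM (median 0.819) in cDC1 and from 2291 to 3479.7 (median 2855) in pDC (log2FC -11.22, SE 0.568, adjusted p = 1.22e-07), and held rank 4 in pDC per kilobase of exon against rank 7643 of 10638 in cDC1. Cd7, Syk and Cd79b, a chain of the B cell receptor complex, had log2FC of -7.98, -2.27 and -4.90, and Blnk, the B cell linker, averaged 0.267 CPM in cDC1 and 273 in pDC, picked after its values were seen. Rag1, Ebf1 and Pou2af1 were each under 1 CPM on average in both cell types. The 3 members higher in cDC1 were Foxo1, Btk and Tcf7, at log2FC of 0.87, 0.43 and 2.31. The lymphoid list shares members with other lists here, among them Ets1 and, from the pDC marker list, Dntt, Ly6d and Cd7. By summed level, B cell markers were lower and plasma cell markers higher in pDC. Of 6 B cell markers tested, 3 were higher in cDC1 and 2 higher in pDC. The part of such cells in these values was not tested.

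Several genes used to mark cDC2 were higher in pDC than in cDC1. Of 17 tested, 11 were higher in pDC and 5 higher in cDC1, with a median log2FC of -1.22. Sirpa, the gene of the CD172a used to sort cDC2, averaged 4.02 CPM in cDC1 and 424 in pDC, Cd4 7.30 CPM in cDC1 and 777 in pDC and Clec10a, a galactose lectin, 0.0640 CPM in cDC1 and 251 in pDC; Sirpa was picked after its values were seen. Against the cDC2 libraries, where they averaged 1233, 252 and 22.4 CPM, the log2FC of cDC2 over pDC were 1.56 for Sirpa (adjusted p = 1.20e-04), -1.60 for Cd4 (adjusted p = 4.39e-10) and -3.56 for Clec10a (adjusted p = 2.91e-12). Irf4, a factor of cDC2, and Clec12a had log2FC of -4.55 and -1.22. Tmem176a, Tmem176b, Esam and Rbpj were higher in cDC1, at log2FC of 1.80, 0.94, 1.49 and 1.78. Over all genes 51.1% of 12111 were called between cDC1 and cDC2 and 60.5% between cDC2 and pDC in a fit of the 24 control libraries, and both comparisons share libraries with the one described here. Genes taken as common to conventional dendritic cells were higher in cDC1 for 16 of 18 members (median log2FC 2.83). Ncoa7, Dpp4 and Gpr132 had log2FC of 6.99, 1.23 and 1.44, while Csf2rb and Spint2 were higher in pDC at -0.74 and -0.32. Not all members were alike in cDC1 and cDC2. Ncoa7 ranged from 467 to 974 CPM in cDC1 but from 25.8 to 49.5 in cDC2, so its high level was not shared. Dpp4 ranged from 374 to 501 CPM in cDC1 and from 368 to 452 in cDC2, and Gpr132 from 133 to 214 and from 192 to 320.

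Lysosomal genes were mostly higher in pDC. Of 25 genes of lysosomal enzymes and membrane proteins 19 were higher in pDC, 4 higher in cDC1 and 2 not called, with a median log2FC of -0.99. Their summed level went the other way, at 46815 to 50922 CPM in cDC1 and 23921 to 30710 in pDC. Cst3, the cysteine protease inhibitor cystatin C, ranged from 17412 to 23619 CPM (median 20516) in cDC1 and from 865 to 1079 (median 1014) in pDC (log2FC 4.32, SE 0.0598, adjusted p = 2.20e-14), and Ppt1, a thioesterase that cDC1 use in cross-presentation, ranged from 5642 to 7370.0 CPM (median 6955) in cDC1 and from 201 to 262 (median 239) in pDC (log2FC 4.80, SE 0.0444, adjusted p = 8.98e-16). Gusb and Psap had log2FC of 3.23 and 1.08. Among those higher in pDC Ctsb, a cysteine protease, ranged from 773 to 876 CPM (median 823) in cDC1 and from 5238 to 6297 (median 5737) in pDC (log2FC -2.83, SE 0.0426, adjusted p = 3.23e-14), Ctsh, Ctsd and Ctsa had log2FC of -2.11, -3.79 and -2.53, and Ctsl, picked after its values were seen, averaged 6.12 CPM in cDC1 and 1834 in pDC. In the phagocyte NADPH oxidase, which raises endosomal pH, the catalytic chain Cybb ranged from 0.865 to 4.13 CPM (median 1.61) in cDC1 and from 986 to 1465 (median 1149) in pDC (log2FC -9.52, SE 0.218, adjusted p = 5.43e-11), while its partner Cyba averaged 758 CPM in cDC1 and 809.7 in pDC and was not called (adjusted p = 0.353). Ncf1 was higher in pDC (log2FC -1.09) and Ncf4 and Rac1 higher in cDC1 (1.87 and 0.82).

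Genes of the endoplasmic reticulum did not lean to one side as a list: 15 of 32 were higher in pDC, 10 higher in cDC1 and 7 not called, with a median log2FC of -0.10. Xbp1, the factor that expands the secretory apparatus, ranged from 254 to 347 CPM (median 273) in cDC1 and from 736 to 1068 (median 898) in pDC (log2FC -1.71, SE 0.0592, adjusted p = 5.98e-11), and Edem2, Txndc5 and Spcs2 were higher in pDC as well, at log2FC of -1.70, -1.54 and -0.69. Sdf2l1, Pdia6, Hspa5 (BiP) and Sel1l were higher in cDC1, at 2.18, 0.72, 0.69 and 0.81. Mzb1, a chaperone of plasma cells and pDC, averaged 0.109 CPM in cDC1 and 197 in pDC, with 57% of its exon bases under another gene.

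Cell cycle genes were higher in cDC1 for 30 of 36 members, 22 of them past 4-fold, with a median log2FC of 2.69. Mcm6 and Mcm7, of the replication helicase, averaged 227 CPM in cDC1 and 59.1 in pDC and 133 CPM in cDC1 and 30.4 in pDC and Hmgb2 386 CPM in cDC1 and 64.3 in pDC. Genes of mitosis, picked after their values were seen, were low in pDC: Ccnb2, a mitotic cyclin, ranged from 43.1 to 71.0 CPM (median 61.7) in cDC1 and from 0 to 5.32 (median 0.302) in pDC (log2FC 6.65, SE 0.851, adjusted p = 9.76e-05), and Mki67, the proliferation marker Ki-67, averaged 9.11 CPM in cDC1 and 1.24 in pDC. In bulk RNA fewer cells with a transcript and less of it per cell cannot be told apart. The 4 members higher in pDC were Cdkn2d and Cdkn2c, inhibitors of CDK4 and CDK6, and the D-type cyclins Ccnd1 and Ccnd2, at log2FC of -3.55, -1.43, -1.35 and -0.76. Cdkn1a, the gene for the inhibitor p21, was higher in cDC1 (71.0 CPM in cDC1 and 5.34 in pDC).

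Apoptosis regulators of both signs were higher in cDC1: 19 of 27 tested, against 3 in pDC and 5 not called, with a median log2FC of 0.94. Mcl1, a survival protein, ranged from 994 to 1236 CPM (median 1066) in cDC1 and from 383 to 506 (median 467) in pDC (log2FC 1.23, SE 0.0533, adjusted p = 4.86e-10). The survival genes Bcl2a1a and Bcl2a1d averaged 114 CPM in cDC1 and 0.0468 in pDC and 129 CPM in cDC1 and 0.440 in pDC; they are near-identical copies with Bcl2a1b, so the split among them is uncertain, but all 3 were higher in cDC1. The death-promoting genes Bmf and Fas, picked after their values were seen, had log2FC of 2.12 and 3.62 and Casp6 1.69. Casp1, Bbc3 and Bcl2l2 were higher in pDC, at -0.83, -0.51 and -2.11. The call of Bbc3 was lost without replicate 6 (log2FC -0.45) or 7 (-0.38) and that of Bcl2l2 without any 1 of replicates 1, 2, 4, 6 and 8 (-1.99 to -1.73); the number of members higher in pDC varied from 1 to 5 with the settings.

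Glycolysis genes leaned to cDC1 and sterol genes to pDC. Of 22 glycolysis genes 14 were higher in cDC1 and 4 higher in pDC, with a median log2FC of 0.74, among them Pgk1, Pgam1 and Gapdh at log2FC of 1.48, 1.23 and 1.16. The 2 lactate dehydrogenase chains parted: Ldha averaged 1630.0 CPM in cDC1 and 676 in pDC and Ldhb 0.244 CPM in cDC1 and 116 in pDC. The same held for glucose entry, where the transporters Slc2a3 (7.38 CPM in cDC1 and 182 in pDC) and Slc2a6 (23 CPM in cDC1 and 179 in pDC) and the hexokinase Hk1 (26.6 CPM in cDC1 and 47.7 in pDC) were higher in pDC, while Hk3, picked after its values were seen, averaged 191 CPM in cDC1 and 0.371 in pDC. Of 24 genes of sterol and fatty acid synthesis 19 were higher in pDC, with a median log2FC of -1.03. Msmo1, Dhcr7, Insig1 and Fdft1, of the sterol arm, had log2FC of -1.93, -2.25, -1.79 and -1.35. The 3 members higher in cDC1, Fasn, Scd1 and Acaca, all belong to fatty acid synthesis (log2FC 1.5, 3.52 and 0.63). The call of Acaca was lost without any 1 of replicates 1, 2, 3, 4, 7 and 8, at log2FC of 0.49 to 0.66.

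**Figure D5:**
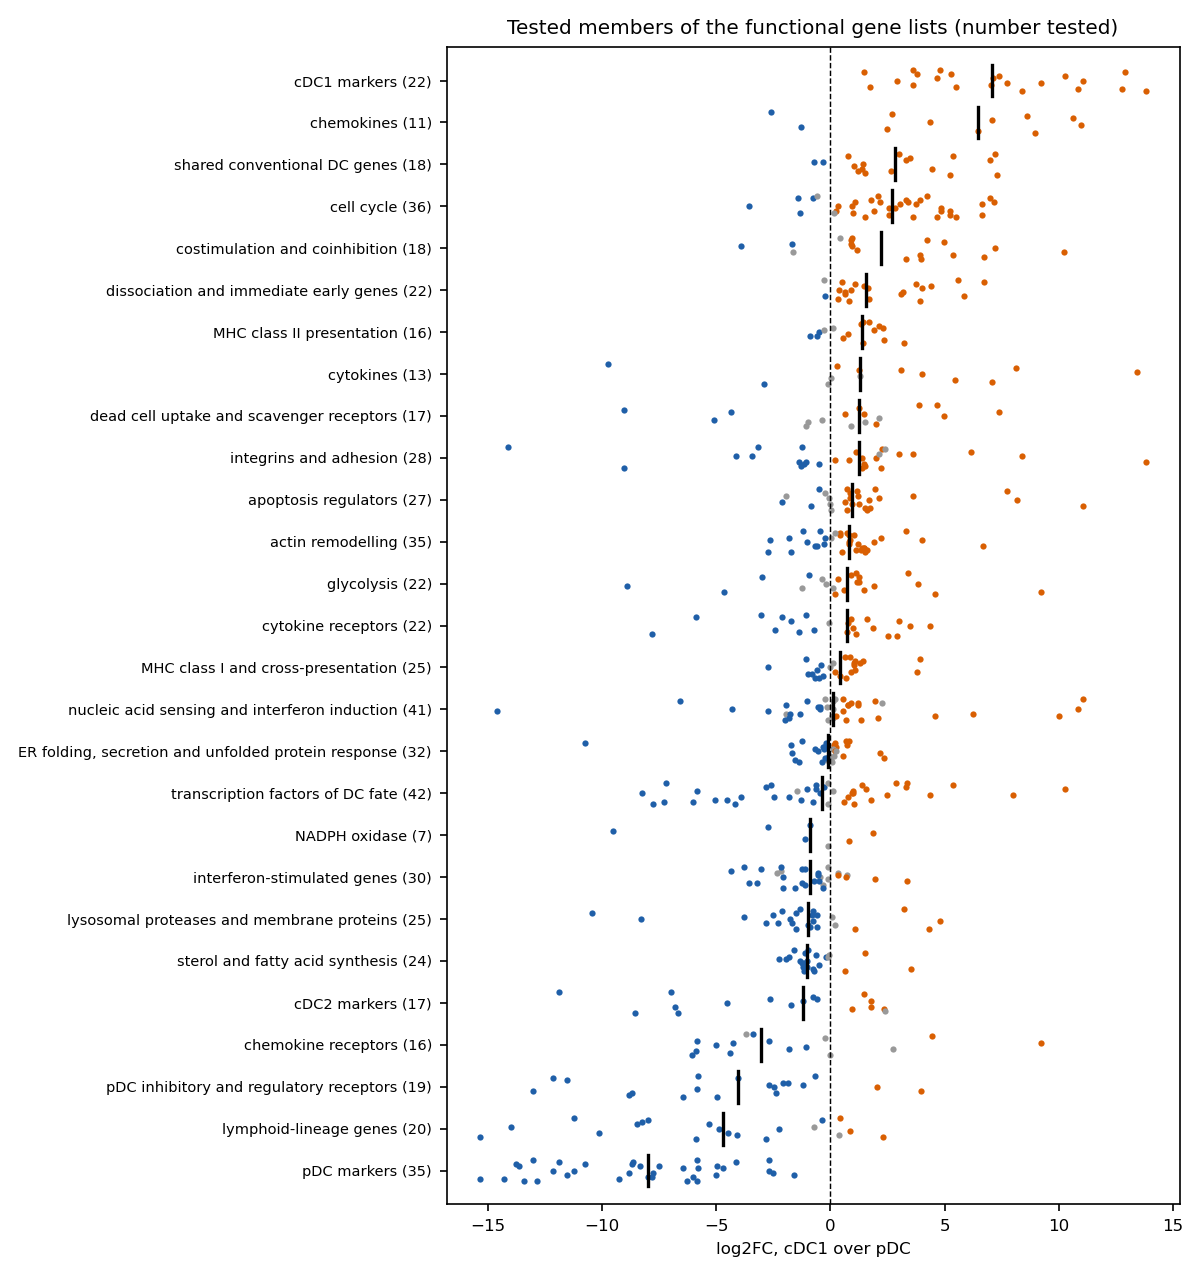
Log2FC of cDC1 over pDC for every tested member of the 27 functional gene lists, 1 row per list; orange points were called higher in cDC1, blue points higher in pDC and grey points not called, black bars are list medians and the dashed line marks the median of all 11450 genes, -0.04. Costimulation, cell cycle and chemokines lie to the right, lymphoid genes and chemokine receptors to the left, and transcription factors spread to both sides.

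Actin genes were mostly higher in cDC1, while adhesion genes went both ways. Of 35 genes of actin remodelling and its regulators 22 were higher in cDC1 and 11 higher in pDC, with a median log2FC of 0.80. Actg1 and Actb had log2FC of 2.23 and 1.52, Arpc2 and Lcp1 1.49 and 1.47, and Fscn1, the bundling protein of dendrites, picked after its values were seen, averaged 193 CPM in cDC1 and 11.6 in pDC. Cyth4, Cyfip1 and Rhoh were higher in pDC, at -1.83, -1.73 and -2.66. Of 28 adhesion genes 15 were higher in cDC1 and 11 in pDC, and their summed level was 4702 to 5937 CPM in cDC1 and 5920 to 7963 in pDC, overlapping slightly. Cadm1, the adhesion protein used to mark cDC1, averaged 538 CPM in cDC1 and 43.6 in pDC, Icam1 476 CPM in cDC1 and 176 in pDC and Itgb1 552 CPM in cDC1 and 249 in pDC. On the pDC side Cd47 and Itgal had log2FC of -1.38 and -1.15.

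Immediate early genes, which also respond to digestion of tissue, were higher in cDC1 for 20 of 22 members (median log2FC 1.56). Dusp1, a phosphatase of MAP kinases, ranged from 1496 to 2586 CPM (median 2178) in cDC1 and from 148 to 347 (median 267) in pDC (log2FC 3.08, SE 0.0842, adjusted p = 7.63e-12). Dusp2, Atf3 and Nr4a1 had log2FC of 5.59, 3.93 and 1.70, and Egr2, picked after its values were seen, averaged 459 CPM in cDC1 and 8.37 in pDC. Fos was high in both, at 4329 ± 913 CPM (SD, n = 8) in cDC1 and 3309 ± 741 in pDC (log2FC 0.37). Jund was the 1 member called higher in pDC (log2FC -0.22), a call lost without replicate 4 (-0.18) and without the replicate block (-0.23). Spleens were digested for 30 min at 37 degrees before sorting, and the part of that step in these values was not tested.

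Per kilobase of exon, the 10 strongest protein-coding transcripts of cDC1 were Cd74, Tmsb4x, Cst3, H2-Ab1, Psap, H2-Eb1, B2m, H2-Aa, Ftl1 and Actg1, and those of pDC Cd74, B2m, Tmsb4x, Ly6d, Ccl4, H2-Ab1, Psap, Tyrobp, Ftl1 and Fth1. Cd74, Tmsb4x, H2-Ab1, Psap, B2m and Ftl1 stood on both. The ferritin chains parted in sign, Ftl1 at a log2FC of 0.76 and Fth1 at -1.88.

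Some genes past 4-fold lay side by side among the tested genes. The longest run was Gimap9, Gimap4, Gimap6, Gimap1 and Gimap5, GTPases of lymphocyte survival on chromosome 6, all higher in pDC at log2FC of -8.52, -5.93, -7.50, -6.62 and -8.39. On chromosome 15, Ly6i, Ly6a, Ly6c1 and Ly6c2 were all higher in pDC, although reads can be split among these near copies. On chromosome 5, Naaa, Sdad1, Cxcl9 and Cxcl10 were all higher in cDC1 at log2FC of 7.03, 3.05, 10.97 and 4.37. On chromosome 6, Cd4 and Lag3 were neighbours in a run of 4 higher in pDC. Such runs were not tested against chance.

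Transcripts of Xist and Ddx3y put female mice at the odd and male mice at the even numbers in both groups, so sex was balanced. No gene of 11450 had a cell type difference that depended on sex at an adjusted p below 0.05 in edgeR's interaction test, and 401 did so at an unadjusted p below 0.05. Those 401 are under a share of 0.05 of the genes, the share that this threshold lets pass when no gene differs. Xist itself was higher in the pDC of females, from 193 to 328 CPM against 34.6 to 105 CPM in cDC1.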

How the data were processed

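Per the labels' protocols, an input of 4 ng of RNA went into SMART-Seq v4 amplification, libraries had 15 PCR cycles, and single reads of 75 bp came from 2 NextSeq flow cells; which of these a library ran on is not given in the sources used here. This kit does not mark strand, so reads of a gene and of an antisense partner cannot be told apart, and without molecular identifiers PCR copies count as reads. The build was mm10 and the tools listed were TopHat2 2.1.0, Trimmomatic 0.35, SAMtools 0.1.18 and FastQC 0.11.4 (submitters' processing notes); the counting tool and its annotation are not given in those sources. Raw read counts per gene symbol, as the authors deposited them, covered 24421 genes in each library. The 5 summary lines that name no gene entered neither the library sizes nor any test. Positions, exon lengths and overlaps came from a GENCODE annotation of GRCm38.

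Counts of the 16 libraries were fitted in R 4.3.3 with edgeR 4.0.16: filterByExpr by group (minimum count 10, minimum total 15), TMM scaling and a robust quasi-likelihood fit with replicate number as a block, with two-sided tests and Benjamini-Hochberg adjustment over 11450 genes at 0.05. CPM were scaled over all 28 libraries. A gene without a count in a group was set against a floor of 3 counts over the group, 0.0158 CPM in cDC1 and 0.0146 in pDC; counting intervals are exact Poisson at 95% and, like the floor, cover counting error only. No pair of libraries of a group agreed within sampling noise (lowest chi-square per degree of freedom 33.9 in cDC1 and 41.4 in pDC).

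The comparison and the gene lists were chosen with earlier results of these data known. Genes named are the 12 with the largest log2FC each way among called genes without overlap between the groups and with at least 10 CPM, leaving out predicted genes, antigen receptor segments and markers of other cells; up to 4 members of each list per direction by adjusted p; marker genes; and the 10 strongest per kilobase. A few members that the rule names are not reported here. Members outside that rule are said to be picked after their values were seen. Alternatives were another test (DESeq2 1.42.0), scalings, filters, libraries, the fit without the block and a test against a 1.5-fold change.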

Additional observations from a re-analysis of the deposited data

Results flagged for a closer look

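In 20 of 407 sets of 8 libraries (4.91%; named genes of at least 10 CPM in the group), 1 library lay apart from the others on the log2 scale. Chance alone sets about 1 in 20 apart. In pDC, replicate 5 had the highest Cd36 at 133 CPM, with the next at 48.8 and the group median at 30.0. Replicate 1 had the lowest Cd47 (1053 CPM, next 1236) and Rac1 (371, next 424) and the highest H2-T23 (1509, next 1182). Cyth4 was lowest in replicate 8 (717 CPM, next 893), Rhoh highest in replicate 2 (119, next 96.9) and Mef2c highest in replicate 3 (319, next 246).

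In cDC1, replicate 2 stood apart for 5 genes: the highest Btla (871 CPM, next 738) and Naaa (3314, next 2907), and the lowest Ccnb2 (43.1, next 56.5), Fcrl1 (14.8, next 26.2) and Tlr6 (1.83, next 8.16). Replicate 3 had the lowest Id2 at 1077 CPM, against 1546 in the next library and at most 7.59 in any pDC library, and the highest Nr4a3 at 212 CPM (next 111). Replicate 4 had the lowest Msmo1 (55.2 CPM, next 89.8) and Ncf4 (183, next 205). Replicate 7 had the lowest Ptprs (45.5 CPM, next 64.5) and the highest Spcs2 (431, next 365). Itgav was lowest in replicate 8 (82.8 CPM, next 109) and Tcf12 in replicate 1 (6.72, next 14.1).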

How the results depend on the processing

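Across 20 alternatives the counts of genes higher in cDC1 and in pDC stayed within 1.5 times of the reported values except against a 1.5-fold change, which left 2071 and 2120. Leaving out 1 replicate number gave 3494 to 3623 and 3441 to 3643 genes. Irf8 kept its direction throughout but did not pass a test against a 1.5-fold change (log2FC -0.63, adjusted p = 0.0972). For the 279 named genes, each gene tested under each of the 20 alternatives was counted as 1 case. In 5465 cases call and sign stayed the same, in 87 a call was lost, in 4 a call was gained and in 19 the value turned sign. Each value that turned sign was of a gene that had not been called: Cxcr4 (0.0016 by DESeq2, 0.0015 by RLE scaling, 0.015 and 0.019 with all 28 libraries with and without the block, 0.061 in males, and -0.027 to 0.019 without 1 replicate), Tlr12 (-0.058 without the block, -0.21 by total counts, -0.033 with all 28 libraries and no block, -0.019 in replicates 1 to 4, -0.17 in females, -0.040 to 0.081 without 1 replicate), Myd88 (-0.12 by total counts) and Cyba (0.029 in replicates 5 to 8). The cause of these shifts was not tested.

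List counts moved in 42 of 1080 cases, mostly counts of few members. Against a 1.5-fold change, members higher in pDC fell to 1 (shared conventional genes), 11 (interferon-stimulated), 1 (MHC class II), 5 (MHC class I), 6 (ER), 1 (apoptosis), 6 (actin) and 0 (immediate early), and members higher in cDC1 to 2 (interferon-stimulated) and 5 (ER). With total counts, 6 ER members were higher in cDC1, and 5 apoptosis and 2 immediate early members in pDC. In replicates 1 to 4, 1 cytokine and 1 apoptosis gene were higher in pDC and 1 lymphoid gene in cDC1. In replicates 5 to 8, 1 shared, 1 cytokine, 1 apoptosis and 0 immediate early members were higher in pDC, and 3 cDC2 markers and 1 sterol member in cDC1. In females, 3 cDC2 markers and 1 sterol member were higher in cDC1 and 9 ER, 1 apoptosis and 2 immediate early members in pDC; in males 1 shared, 1 cytokine and 0 immediate early members were higher in pDC and 1 regulatory receptor in cDC1. Without the block 1 cytokine and 0 immediate early members were higher in pDC, the same as with all 28 libraries and no block, where 1 apoptosis member was too; with all 28 libraries and the block 0 immediate early members were, and by DESeq2 2. Leaving out 1 replicate gave 1 to 3 cytokine, 1 to 3 apoptosis and 0 to 2 immediate early members higher in pDC.

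The replicate numbers were checked as pairs: deviations of same-numbered libraries correlated at 0.0392 to 0.304 (median 0.161; other pairs -0.358 to 0.261), 7 of 8 above 0.1, and 6 cDC1 and 7 pDC libraries correlated best with their own number. The libraries that did not were replicate 1 of both cell types, whose own pair had the lowest correlation (0.0392), and replicate 7 of cDC1. This match of numbers is a hint from the data, not the design, and it was missing for replicate 1. Without the replicate block 3528 and 3567 genes were called, 1036 and 1023 past 4-fold. List medians were the same with genes at 0 set to their bound, since the shift was 0. Depth limits genes near the floor.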
